A study of Chenopodium quinoa with 9 samples.

Results

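The stem and root transcriptomes of quinoa (Chenopodium quinoa), a broad-leaved grain crop, were compared over 3 stem and 3 root libraries out of 9 in the series. Every library came from field-grown plants of a yellow bitter type, with no treatment named and no line named beyond that type. Per the labels, each library pooled 10 of 30 individuals, and stems and roots of a given replicate number were taken from the same pool. Leaf libraries of those pools are used below only for the estimate of spread and as reference levels. Of the 54238 genes listed, 45619 had a count in at least 1 of the 6 libraries, and 35184 had enough counts to be tested. These 35184 comprised 29696 genes with an AUR62 identifier and 5488 with another identifier, called non-AUR62 genes here.

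The root takes up water and minerals from the soil and anchors the plant. The stem carries the shoot, holds the xylem and phloem that connect root and leaf, and in a herbaceous plant usually has green, photosynthetic outer tissue. Because quinoa is an allotetraploid, many of its genes have a near-identical copy in the other subgenome.

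None of the listed identifiers (0) could be matched to a gene name in the reference table of 58882 genes, so genes are given by identifier and no function is stated. For the same reason, the organ labels could not be checked against markers of xylem, phloem, root or leaf. These are bulk organ samples, in which fewer cells of a type and less RNA per cell cannot be told apart.

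The total count per library was 16112021, 18253046 and 17525961 in root and 20835559, 18719390 and 24846346 in stem (replicates 1 to 3). Over genes, the root libraries correlated with each other at 0.934 to 0.970 in log2 CPM (read counts set to one library size with TMM factors), while stem replicates 2 and 3 correlated at 0.887. Stem replicate 1 stood apart, at 0.786 and 0.758 with the other stem libraries. With the root libraries it correlated at 0.582 to 0.655, which overlapped the 0.613 to 0.657 of stem replicate 3. Stem replicate 2 was at 0.664 to 0.701 with root. With the leaf libraries, stem replicate 1 was at 0.716 to 0.740 and stem replicates 2 and 3 were at 0.824 to 0.865. These correlations describe the libraries and were not tested. Results are therefore given by stem library and without stem replicate 1.

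Stem and root differed in 7763 of the 35184 genes, or 22.1% (edgeR quasi-likelihood test, Benjamini-Hochberg adjusted p below 0.05). Of these, 4338 genes were higher in stem (12.3% of those tested) and 3425 were lower (9.73%). This fit did not use the shared pools. With the replicate number as a block, 3160 genes were higher and 2429 lower in the fit of all 9 libraries, and 1209 and 577 in the fit of the 6 libraries alone. Among the 4338 higher genes, 4236 had all stem libraries above all root libraries, and among the 3425 lower genes 3422 had all stem libraries below all root libraries. Over all tested genes, called or not, the organs did not overlap in 7079 genes (20.1%) with stem above and 7917 genes (22.5%) with stem below. Calls toward stem made up 55.9% of all calls. limma on log2(FPKM + 1) called 3869 genes higher and 4826 lower, so that calls toward stem made up 44.5%.

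**Figure D1:**
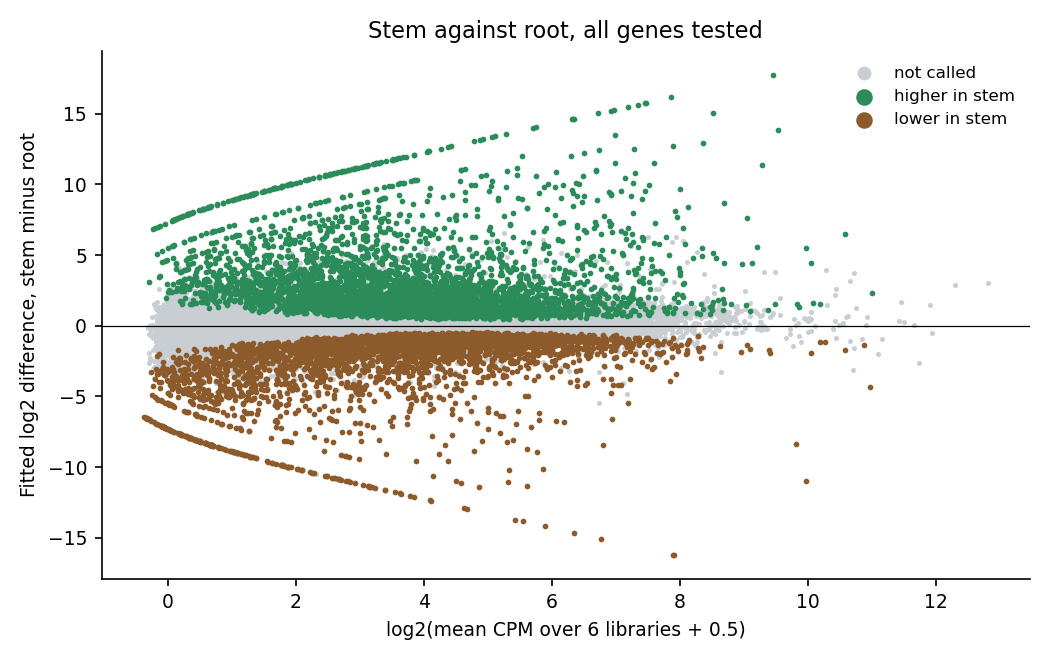
Fitted log2 difference of stem minus root (vertical axis) against the log2 of the mean CPM over the 6 stem and root libraries plus 0.5 (horizontal axis), one point per tested gene. The 4338 genes called higher and the 3425 called lower span the whole range of levels; the curved outer rows of points are genes with few or no counts in one organ, whose fitted difference is no bound.

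Differences between the organs ran from under 2-fold to over 256-fold. Genes with few counts in an organ kept their fitted difference, which is no bound. An example is AUR62042566, at a log2 difference of 15.0 with 0, 0.04 and 0 CPM in root. Genes without a count in any library of an organ were set at a floor of 3 counts per library. The median absolute log2 difference was then 1.98 among genes higher in stem and 1.64 among those lower. At least a 2-fold difference was seen in 3670 of the 4338 higher genes (84.6%) and in 2595 of the 3425 lower genes (75.8%). At least a 16-fold difference was seen in 878 higher genes (20.2%) and 499 lower genes (14.6%), and at least a 256-fold difference in 149 and 44 genes. In 168 of the higher genes every root library had 0 counts, and in 183 of the lower genes every stem library had 0 counts. The classes of at least 16-fold and 256-fold hold genes at the floor and genes with few counts alike. These shares describe the called genes and were not tested against each other.

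The share of genes called was lowest for weakly expressed genes and rose with level up to a middle range. Levels are mean FPKM over the 6 libraries, which the authors scaled for the length of the gene and the size of the library. Among 3604 genes under 1 FPKM, 6.33% were called higher in stem and 9.74% lower. This is the one level class below 1000 FPKM in which more genes were called lower than higher. Among 8384 genes from 10 to 30 FPKM, 14.8% were higher and 11.0% lower, and among 1222 genes from 100 to 1000 FPKM, 16.4% and 9.08%. Of the 61 genes at 1000 FPKM or more, 8 were higher and 4 lower. How far the number of counts behind a gene sets these shares was not tested.

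Genes higher in stem were somewhat shorter than genes lower in stem. The median length was 1396 bp (quartiles 933 and 2032) for the higher genes, 1590 bp (1016 and 2343) for the lower genes and 1484 bp (965 and 2243) for all tested genes. Among the non-AUR62 genes, 426 (7.76%) were higher and 584 (10.6%) lower in stem, while among AUR62 genes 3912 (13.2%) were higher and 2841 (9.57%) lower. These class differences are counts beside the background of 12.3% and 9.73% and were not tested.

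Genes not called held most of the counts of each library. Their share was 75.4% to 78.6% in root and 78.1%, 72.9% and 69.3% in stem replicates 1, 2 and 3. Called genes were 22.1% of those tested. The genes higher in stem held 5.75% to 6.05% of counts in the root libraries, and 17.4%, 21.8% and 24.4% in stem replicates 1, 2 and 3. Genes lower in stem held 15.2% to 18.6% of counts in root and 3.93%, 5.03% and 5.82% in stem replicates 1, 2 and 3. Since the genes were chosen on these libraries, the shares show the size of the sets only. Leaf was not part of the contrast, although its libraries entered the estimate of spread. The median level of the genes higher in stem was 4.02 to 4.46 CPM in the root libraries, 16.2 to 18.9 CPM in stem and 23.9 to 30.4 CPM in leaf. For the genes lower in stem it was 16.3 to 18.8 CPM in root, 4.71 to 5.96 CPM in stem and 4.61 to 5.38 CPM in leaf.

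The genes named in this comparison were those of highest mean FPKM in the higher organ, among called genes with at least a 2-fold difference, no overlap between organs and one direction in each of the 3 pairs of like replicate number. There were 3570 such genes higher in stem and 2592 lower, and the leading pair of each direction is described. Each gene's levels are given in FPKM in the order of replicates 1, 2 and 3.

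AUR62003224, a gene of 231 bp, was at 21.5, 70.5 and 354 FPKM in root and at 27274, 11829 and 799 FPKM in stem. Every stem library lay above every root library, but stem replicate 3 was near the highest root library and far below the other stem libraries. The fitted difference was 6.50 ± 1.82 on the log2 scale (SE derived from the F statistic, 3 libraries per organ), a 90.4-fold difference with an adjusted p of 0.0351 (edgeR). In leaf the gene also ranged widely, at 16609, 702 and 3745 FPKM. The call rested on a narrow margin. The adjusted p (edgeR) was 0.0516 without stem replicate 1, 0.0549 without stem replicate 2, 0.101 and 0.125 when root replicate 1 or 2 was left out, and 0.053 when leaf replicate 3 was. It was 0.0508 in the fit of the 6 libraries alone and 0.0927 with the replicate block. The log2 difference was 5.44 without stem replicate 1, 7.05 without stem replicate 3 (adjusted p = 0.0215) and 8.21 without root replicate 3 (adjusted p = 0.0469).

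AUR62010822, a gene of 222 bp, was at 613, 263 and 415 FPKM in root and at 1741, 12935 and 12795 FPKM in stem. Stem replicates 2 and 3 were nearly equal, and stem replicate 1 lay between them and root. The mean rose from 430 ± 176 FPKM in root to 9157 ± 6423 FPKM in stem (SD, n = 3), a fitted log2 difference of 4.45 ± 0.80 (adjusted p = 0.006, edgeR). All leaf libraries were higher still, at 28043 to 40660 FPKM. The call was kept in 21 of 22 alternatives, the exception being the replicate block in the 6 libraries alone (adjusted p = 0.128). The log2 difference without stem replicate 1 was 4.94 (adjusted p = 0.000305).

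In the other direction, AUR62017046, a gene of 668 bp, was at 4002, 3521 and 4933 FPKM in root and at 1311, 1562 and 1986 FPKM in stem. All stem libraries lay below all root libraries, with means of 1620 ± 341 and 4152 ± 717 FPKM (SD, n = 3). The log2 difference of -1.33 ± 0.36 had an adjusted p of 0.0321 (edgeR). Leaf was at 3295, 2757 and 1952 FPKM, so that leaf replicate 3 fell among the stem libraries and none reached the root range. The call was lost without root replicates 1, 2 and 3 (adjusted p = 0.0973, 0.0833 and 0.0888, edgeR), without stem replicate 2 (0.094) and without leaf replicate 1 (0.0507). It was also lost in the fit of the 6 libraries alone (0.0622) and with the replicate block (0.0831).

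AUR62037366, a gene of 1063 bp, was at 3621, 2966 and 4538 FPKM in root and at 388, 17.7 and 137 FPKM in stem. Stem replicate 1 had the highest and stem replicate 2 the lowest of the stem values, all of them below root. The fitted log2 difference was -4.34 ± 1.07 (adjusted p = 0.0319, edgeR). It was listed at 0 in all leaf libraries. The adjusted p was 0.0794, 0.0788 and 0.074 without root replicates 1, 2 and 3, and 0.0729 without stem replicate 3. Without stem replicate 1 the log2 difference was -5.56 (adjusted p = 0.0136), and without stem replicate 2 it was -3.75 (adjusted p = 0.019).

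**Figure D2:**
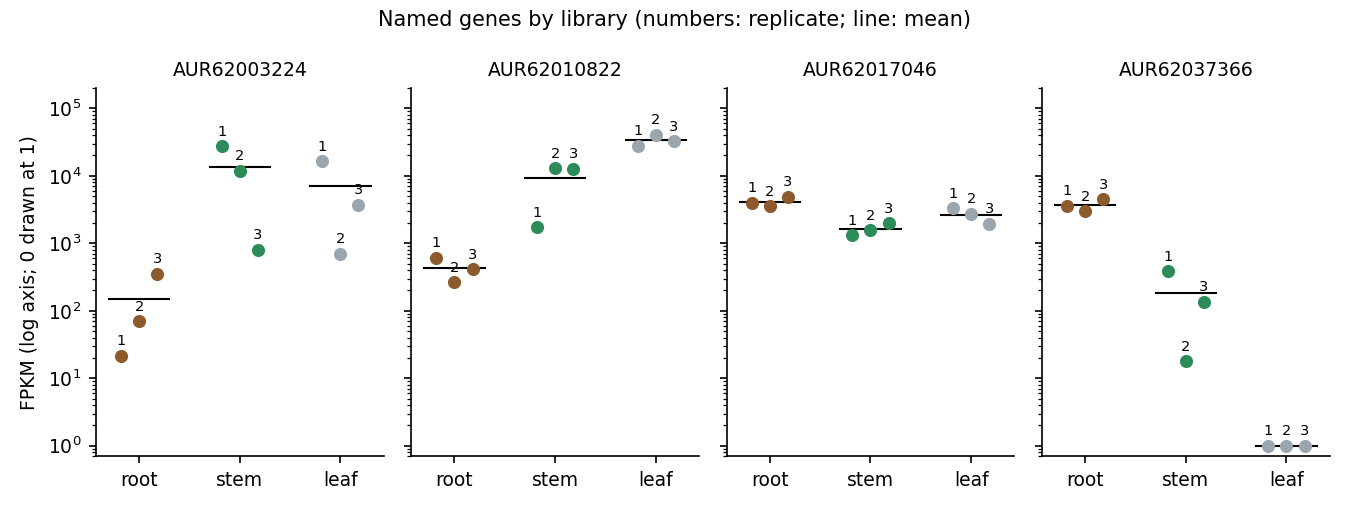
FPKM on a log axis for the 4 named genes, one point per library labelled with its replicate number, and a line at the mean of each organ; values of 0 are drawn at 1. Stem and root points are separate in each panel, and the stem points of AUR62003224 run from 799 to 27274 FPKM.

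Of the 61 genes at a mean of 1000 FPKM or more, 8 were called higher and 4 lower, so most were not called. The 3 genes of highest mean FPKM among those not called are given here and were chosen after their values were seen. Their levels differed widely within an organ. Other genes not called were steadier, such as AUR62020548 at 1223 to 1634 CPM in root and 1249 to 1611 CPM in stem. AUR62003223, a gene of 231 bp, was at 2060, 4727 and 14137 FPKM in root and at 75327, 84111 and 7314 FPKM in stem. It alone took 9.33% of the summed FPKM of stem replicate 2 and 5.72% of stem replicate 1, but 0.917% of stem replicate 3, which lay within the root range (log2 difference 3.02, adjusted p = 0.172, edgeR). Like AUR62003224, which has the same length, it was lowest in stem replicate 3 among the stem libraries. Whether these genes share reads was not tested.

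AUR62025161, a gene of 273 bp, was at 14264, 10651 and 27086 FPKM in root and at 32853, 2115 and 1096 FPKM in stem. Stem replicate 1 exceeded every root library while the other stem libraries lay below all of them (log2 difference -0.51, adjusted p = 0.791, edgeR). AUR62029016, of the same length, was at 21018, 11164 and 34460 FPKM in root and at 10251, 96.2 and 153 FPKM in stem. All stem libraries lay below root, but stem replicate 1 came close to the lowest root library (log2 difference -2.65, adjusted p = 0.245, edgeR). In leaf, AUR62025161 was at 1.43 to 12.2 FPKM, and AUR62029016 had 1 count in leaf replicate 1 and 0 counts in the others.

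The organs overlapped in the number of genes at 1 FPKM or more and in the weight of the leading genes, and were separate in the number of genes at 10 FPKM or more. At 1 FPKM or more there were 31146, 30658 and 30257 genes in root and 30137, 30448 and 30466 in stem (exact permutation p = 0.30, two-sided, where 0.10 is the smallest that 3 against 3 libraries allow). At 10 FPKM or more the order turned, with 12188, 12151 and 12170 genes in root and 12908, 12412 and 12552 in stem (exact permutation p = 0.10). The library size behind FPKM, relative to the total count, was lowest in stem replicate 1 and highest in root replicate 2. How far it sets these numbers was not tested. The 100 leading genes held 22.4%, 20.8% and 28.8% of the summed FPKM in root and 34.5%, 31.3% and 24.4% in stem, and the organs overlapped (exact permutation p = 0.20). These permutation tests did not use the shared pools. Of the 100 leading genes, 76 were shared by all 3 root libraries and 40 by all 3 stem libraries. Stem replicates 2 and 3 shared 70, and stem replicate 1 shared 53 and 42 with them. All 6 libraries shared 29.

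A smaller group of genes was on in one organ and off in the other, defined by a mean of 10 CPM or more in the first and less than 1 CPM in each library of the second. It held 401 genes on in stem and off in root, and 109 genes on in root and off in stem. The rule uses both organs, so these counts are descriptions. Of the 401, 363 had enough counts to be tested and 346 were called, and all 109 root genes were called, where 22.1% of all tested genes were. The rule and the calls used the same 6 libraries, so the calls are largely fixed by the rule. With each library left out, the stem group held 364 to 503 genes. The root group held 81 to 120 genes with a root library left out, and 180, 173 and 135 genes without stem replicates 1, 2 and 3.

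The genes on in stem were uneven among the stem libraries. The median level of the 401 genes was 14.5, 19.7 and 23.6 CPM in stem replicates 1, 2 and 3, against 0.0871 to 0.101 CPM in the root libraries. In 166 of them all stem libraries reached 10 CPM, while in 217 a single stem library held over 50% of the summed level. The highest value was in stem replicate 3 for 235 genes, in stem replicate 1 for 101 and in stem replicate 2 for 65. The group took 1.86%, 2.40% and 3.56% of counts in stem replicates 1, 2 and 3, and 57 of its genes had a mean of at least 100 CPM. Leaf libraries, which the rule did not use, averaged 10 CPM or more for 348 of the 401 genes, and all stayed below 1 CPM for 11. The median leaf level of the group was 36.2 to 62.4 CPM.

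The genes on in root were led by a single library as well. Root replicate 1 held the highest value for 87 of the 109 genes, with medians of 25.4, 17.6 and 13.2 CPM in root replicates 1, 2 and 3. The group took 0.807%, 0.458% and 0.375% of counts in these libraries, and 7 of its genes reached a mean of 100 CPM. For 99 of the 109 genes every leaf library was under 1 CPM, and 2 had a leaf mean of at least 10 CPM.

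The stem libraries varied more among themselves than the root libraries did. The median standard deviation of log2(CPM + 0.5) over genes was 0.46 in stem and 0.22 in root, and was larger in stem for 28091 of the 35184 genes (79.8%). Taken over pairs of libraries, it was 0.20 for stem replicates 2 and 3 and 0.13 to 0.21 for the root pairs. Every called set was nonetheless displaced from root in each stem library. Among genes called higher, the median log2 difference from the root mean was 1.59, 1.67 and 1.72 in stem replicates 1, 2 and 3. Among genes called lower it was -1.55, -1.40 and -1.36. Stem replicate 1 held the lowest of the 3 stem values for 2149 (49.5%) of the higher genes and 1913 (55.9%) of the lower genes, beside 45.6% of all tested genes. It held the highest for 34.8% of the higher genes, 30.6% of the lower genes and 41.5% of all tested genes. Ties were given to stem replicate 1 in both counts, as for the 183 lower genes with 0 counts in every stem library. The calls were made on these libraries, so the values describe how the sets are spread over the stem libraries.

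**Figure D3:**
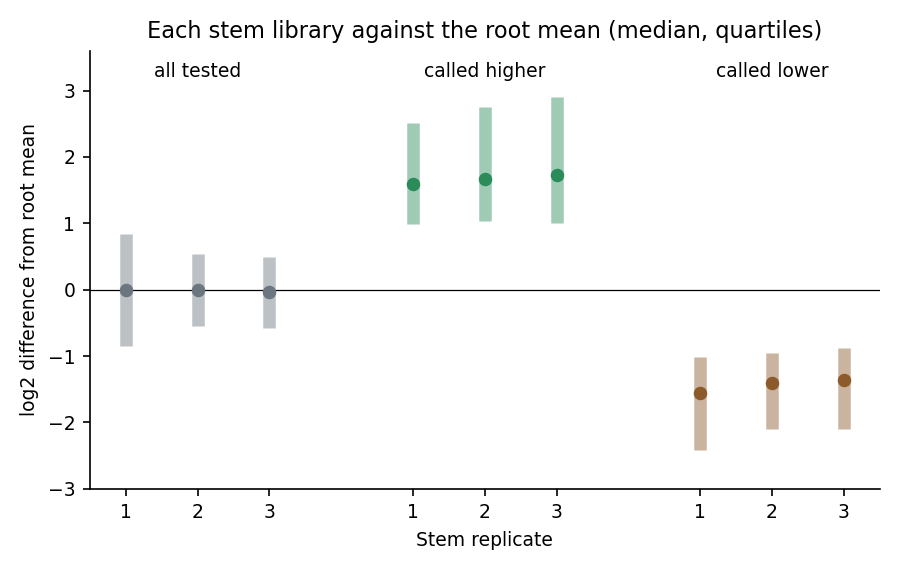
Log2 difference of each stem library from the mean of the root libraries, in log2(CPM + 0.5), for all 35184 tested genes, the 4338 called higher and the 3425 called lower; points are medians over genes and bars run between the quartiles. The medians of the called sets are alike in the 3 stem libraries, and over all genes the bar of stem replicate 1 is the widest, from -0.84 to 0.83.

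Genes that set 1 library apart were counted as those at least 4-fold above, or at least 4-fold below, both other libraries of the organ, with at least 10 CPM on the higher side. Stem replicate 1 had 745 such genes on the high side and 464 on the low side. Stem replicate 2 had 93 and 96, stem replicate 3 had 125 and 246, and no root library had more than 49 and 11. Of the 745 genes high in stem replicate 1, 68 (9.13%) were called higher in stem than root and 2 (0.27%) lower. Of the 464 genes low there, 123 (26.5%) were called higher and 8 (1.72%) lower. Over all tested genes these shares were 12.3% and 9.73%. The sets and the calls used the same stem libraries, so nothing is read from the difference.

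The 745 genes high in stem replicate 1 had a median of 36.5 CPM there, against 3.71 and 1.81 CPM in stem replicates 2 and 3. Their median was 5.53 to 6.85 CPM in root and 1.59 to 2.27 CPM in leaf. Stem replicate 1 was above every root library for 680 of them and above every root and leaf library for 665. The set was chosen for high values in stem replicate 1, so these counts are largely fixed by that choice. In 311 of the 745 (41.7%) all root libraries were above stem replicates 2 and 3, and in 76 (10.2%) all were below them. The like shares over all tested genes were not counted. The choice of the set also favours low values in stem replicates 2 and 3, so nothing is read from these counts. The 745 genes held 12.7% of the counts of stem replicate 1, 1.77% and 0.778% in the other stem libraries and 3.04% to 5.28% in root.

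The 464 genes low in stem replicate 1 had a median of 3.48 CPM there. The median was 25.9 and 30.3 CPM in stem replicates 2 and 3, 12.6 to 16.6 CPM in root and 21.6 to 23.3 CPM in leaf. Stem replicate 1 was below every root library for 328 of them and below every root and leaf library for 278, but above every root library for 111. The set was chosen for low values in stem replicate 1, which favours the first 2 counts. The like shares over all tested genes were not counted, so nothing is read from these counts. The 464 genes held 0.476% of the counts of stem replicate 1, against 5.16% and 5.38% in stem replicates 2 and 3. The high and low sets were chosen by stem replicate 1 against stem replicates 2 and 3. Their levels in all stem libraries are fixed in part by that choice and are descriptions without a test. What set stem replicate 1 apart was not tested.

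**Figure D4:**
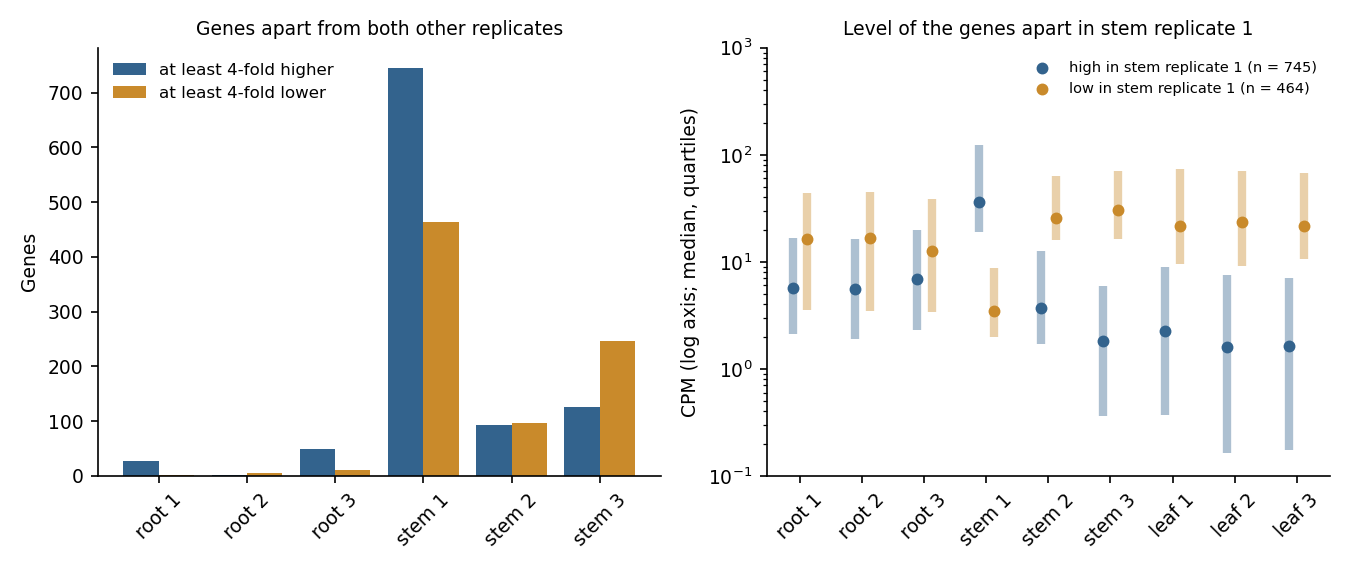
Left, the number of genes at least 4-fold above or below both other libraries of the organ, for each root and stem library. Right, CPM on a log axis in all 9 libraries for the 745 genes high and the 464 genes low in stem replicate 1, with points at the median and bars between the quartiles. The median of each set in stem replicate 1 lies beyond its medians in the root and leaf libraries. The sets were chosen on stem replicate 1, and single genes can go the other way.

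Without stem replicate 1, 5084 genes were higher in stem and 4626 lower (edgeR). Of the genes called with all libraries, 3932 of 4338 higher and 3138 of 3425 lower were called again in the same direction, and 0 were called in the opposite one. Genes called higher only without it numbered 1152. Their median log2 difference from root was -0.05 in stem replicate 1 and 0.93 and 1.15 in stem replicates 2 and 3. Stem replicate 1 lay within the root range for 364 of them and below every root library for 446. Genes called lower only without it numbered 1488, with medians of -0.14 in stem replicate 1 and -1.13 and -1.17 in the others. The 406 higher and 287 lower genes whose call was lost had larger differences in stem replicate 1 (medians 1.65 and -1.39) than in stem replicates 2 and 3 (0.92 and 0.68, and -0.95 and -0.98). These gained and lost genes were chosen by what stem replicate 1 does to their call, so its medians in them are fixed by that choice and show only their size.

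The root libraries weighed more on the number of calls than any stem library did. With root replicate 1 left out, 2575 genes were higher and 1480 lower, with root replicate 2 left out 2400 and 1366, and with root replicate 3 left out 3024 and 2218. Without stem replicate 2 the numbers were 3961 and 2391, and without stem replicate 3, 4680 and 3220. The cause of this difference between the organs was not tested.

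**Figure D5:**
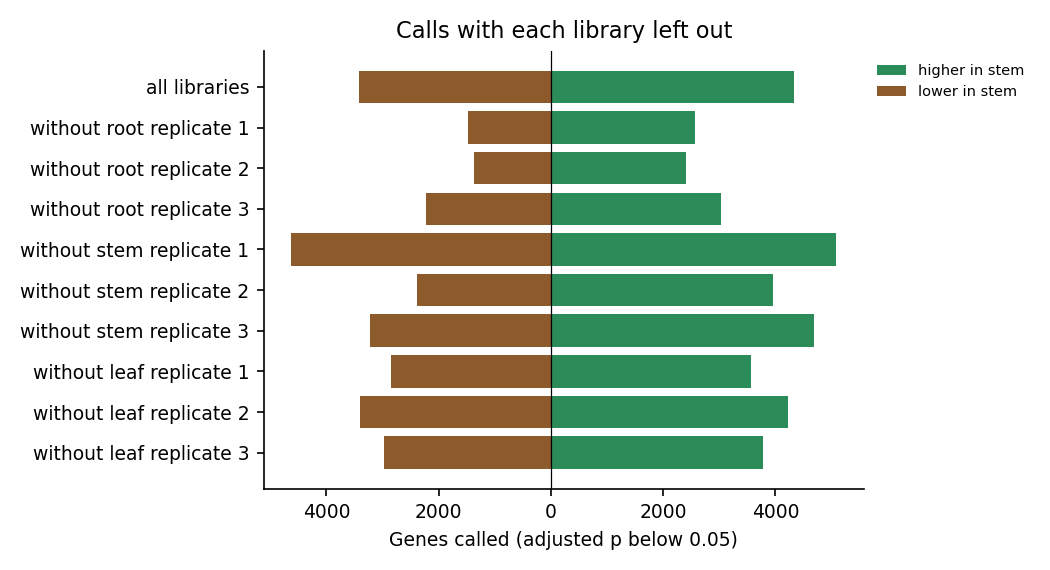
Number of genes called higher (right of 0) and lower (left of 0) in stem than in root, with all libraries and with each library left out, at an adjusted p below 0.05 (edgeR). The bars are longest without stem replicate 1, at 5084 and 4626 genes, and shortest without root replicate 2, at 2400 and 1366 genes.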

How the data were processed

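Per the file headers, the authors deposited raw read counts and FPKM values per gene. The submitters' processing notes list TopHat2 2.0.12 and Bowtie2 2.0.6. How reads were counted, on which genome build, with or without strand, and how reads of near-identical copies were placed are points not given in the sources used here. FPKM, as the authors deposited it, was count over gene length and a library size. Gene lengths came from that relation, whole within 0.01 bp for 100.0% of genes with counts. The library size was 1.20, 1.21 and 1.10 times the total count in root replicates 1 to 3. In stem replicates 1 to 3 it was 0.839, 1.07 and 1.10 times.

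Counts were tested with edgeR 4.0.16 (R 4.3.3): filterByExpr on the 6 libraries, TMM factors, and a robust quasi-likelihood fit of all 9 libraries by organ, with Benjamini-Hochberg adjustment over the 35184 genes. limma 3.58.1 and DESeq2 1.42.0 were alternatives. The procedure was tested on simulated data. Named genes followed a ranking by mean FPKM; planned gene lists needed product descriptions and were not used. The comparison, lists and rules were chosen with earlier results of these data known. Single values per library were compared with exact permutation tests, two-sided (scipy 1.17.1), which did not use the shared pools. Each replicate was its own pool of 10 plants, so p-values measure spread between libraries of different pools within an organ. That spread also holds differences in sampling and library making, which cannot be split from those between pools. The main fit treated the libraries of a pool as independent. Same-numbered libraries share a pool per the labels' protocols; their deviations from organ means correlated at -0.12, 0.08 and -0.12 over genes, so the pairing rests on the protocols. Floors and bounds cover counting error only. No column outside the series (0) was present.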

Additional observations from a re-analysis of the deposited data

How the results depend on the processing

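With RLE or upper-quartile factors, other filters, DESeq2, limma on FPKM and the 6 libraries alone, the counts of calls toward stem and root stayed within 1.5 times of 4338 and 3425. The replicate block gave 3160 higher and 2429 lower, also within 1.5 times. The block in the 6 libraries alone gave 1209 and 577. Asking for more than a 2-fold change (glmTreat) gave 1803 and 992, since that test is stricter by construction. With each library left out, the numbers ran from 2400 to 5084 higher and from 1366 to 4626 lower. Leaving stem replicate 1 out of the fit of the 6 libraries alone, chosen after seeing the data, gave 5410 and 4794.

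With a mean of at least 5 CPM asked for, 711 genes were on in stem and off in root, and 216 the reverse. With each library left out, the genes on in root and off in stem numbered 81 to 180. The stem minus root difference in genes detected was -337 at 1 FPKM and 454 at 10 FPKM, a change of direction. The share of the leading genes kept its direction in all alternatives tried. The 4 named genes kept their direction in all 88 gene and alternative combinations and their call in 62, with adjusted p up to 0.393 in the other 26. AUR62003224, AUR62017046 and AUR62037366 lost their call with glmTreat (adjusted p = 0.0757, 0.393 and 0.0758), and all 4 lost it with the block in the 6 libraries alone (0.0818 to 0.211). The cause of these changes was not tested. Of the genes under 1 FPKM, 16.1% were called, beside 22.1% of all.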
